A study of Homo sapiens with 4 samples.

Results

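Very long chromosome domains were the intervals of 2 Mb or more that the domain calls placed on chromosomes 1 to 22. There were 539 of them among the 15427 domains of 4 Hi-C libraries. They were 110 of 3789 autosomal domains in shLUC replicate 1, 117 of 3789 in shLUC replicate 2, 108 of 3730 in shHNRNPU replicate 1 and 204 of 3261 in shHNRNPU replicate 2. The members were chosen by length alone, so their number and length are a description of each library and were not tested.

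Chromosome contacts were mapped by Hi-C in the H1 line of human embryonic stem cells, an established line, to ask how HNRNPU bears on chromosome folding. The shHNRNPU group (2 libraries) received a lentiviral short hairpin RNA against HNRNPU, and the control shLUC group (2 libraries) one against luciferase, which human cells lack. Both groups were infected with virus packaged in 293T cells, selected with puromycin and grown as the same line in mTeSR1 medium on Matrigel. The labels give neither a time after selection nor whether the replicates were separate cultures, so p-values measure only the spread between these libraries, and the level of HNRNPU was not measured in these files.

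Hi-C joins pieces of DNA that lie close together in the nucleus, and a domain is a stretch of a chromosome that contacts itself more than its neighbours. Borders of domains are often held by the DNA-binding protein CTCF and the ring-shaped cohesin complex, and active genes tend to lie near them. Gene-poor sequence at the edge of the nucleus often folds into long domains with few borders. HNRNPU, also known as SAF-A, binds nuclear RNA and the nuclear scaffold. The files list domains, boundary regions between them and gaps in bins of 40 kb, so a border is known to the nearest bin. Sequencing depth is not given in these lists.

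Sequence was looked at where it bears on the clearest borders, those that the other 3 libraries all called inside a member. Of 196 RefSeq promoters of coding genes within 1 bin of such a border, 2 held, on either strand, the letters CCAC, then AGG and then GGC, each set apart from the one before by a single base of any kind. This is the core of the motif known for CTCF. The share was 1.02%, against 67 of 21156 autosomal coding promoters (0.317%), and with 2 matches the share is a description. The shares were 0.399%, 0.408%, 0.373% and 0.385% for promoters inside the members of shLUC replicates 1 and 2 and shHNRNPU replicates 1 and 2. The letters AAGCTT, cut by the HindIII enzyme used for these libraries, stood in 5.10% of the 196 promoters and 5.29% of all. The promoters of 3 genes, 300 bases each, are printed 5′ to 3′ on the strand of the gene (RefSeq, GRCh38.p14), with the matched letters in capitals. HAAO, an enzyme of tryptophan breakdown, and MC5R, a melanocortin receptor, hold the 2 matches. RANBP2, a nuclear pore protein, has no match and is shown because its promoter lay nearest to a border of the member named for it further on. HAAO lies at chr2:42792534-42792833 on the minus strand, MC5R at chr18:13823899-13824198 on the plus strand and RANBP2 at chr2:108719232-108719531 on the plus strand.
HAAO: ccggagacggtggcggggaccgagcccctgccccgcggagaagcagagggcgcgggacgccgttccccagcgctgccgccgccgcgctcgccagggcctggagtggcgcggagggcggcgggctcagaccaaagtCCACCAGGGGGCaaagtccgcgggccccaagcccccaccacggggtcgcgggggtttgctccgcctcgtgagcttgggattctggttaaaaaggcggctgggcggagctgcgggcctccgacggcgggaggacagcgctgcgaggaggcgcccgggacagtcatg
MC5R: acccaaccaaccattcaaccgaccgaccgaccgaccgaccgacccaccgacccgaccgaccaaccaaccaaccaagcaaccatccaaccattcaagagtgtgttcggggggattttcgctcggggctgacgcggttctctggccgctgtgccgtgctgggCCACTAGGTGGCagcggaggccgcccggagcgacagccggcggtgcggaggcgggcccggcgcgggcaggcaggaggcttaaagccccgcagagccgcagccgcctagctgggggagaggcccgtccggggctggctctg
RANBP2: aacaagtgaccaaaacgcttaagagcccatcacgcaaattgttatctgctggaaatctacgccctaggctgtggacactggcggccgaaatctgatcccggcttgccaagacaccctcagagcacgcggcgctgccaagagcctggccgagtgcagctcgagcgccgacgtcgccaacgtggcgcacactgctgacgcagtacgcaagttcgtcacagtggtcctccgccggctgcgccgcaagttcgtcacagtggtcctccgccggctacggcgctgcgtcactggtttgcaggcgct

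The HAAO promoter lay 7.32 kb from the border at 42800000 inside chr2:42680001-44960000, a 2.28 Mb domain of shHNRNPU replicate 2 with 16 coding genes. The MC5R promoter lay 24.0 kb from the border at 13800000 inside chr18:13680001-15800000, a 2.12 Mb domain of the same library. In both places the other 3 libraries started or ended a domain there. The domains of shHNRNPU replicate 2 started a few bins away, at 42680001 and 13680001, so both borders lay near an end of its domains. Both distances are shorter than a bin and are not resolved. A match of letters is not a bound site, and CTCF was not measured here.

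The number of very long domains set 1 library apart. The shLUC libraries had 110 and 117, a mean of 113.5 ± 4.95 (SD, n = 2). The shHNRNPU libraries had 108 and 204, a mean of 156 ± 67.9 (SD, n = 2). Replicate 1 of shHNRNPU lay below both controls and replicate 2 above all others, so the groups overlapped and the difference of the means (42.5) came from replicate 2. Without it the difference was −5.5.

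Very long domains covered 304 Mb in shLUC replicate 1, 316 Mb in shLUC replicate 2, 301 Mb in shHNRNPU replicate 1 and 586 Mb in shHNRNPU replicate 2. These were 11.4%, 11.9%, 11.3% and 21.8% of the autosomal sequence in domains. Their lengths were alike in all libraries. The medians were 2.5, 2.44, 2.4 and 2.48 Mb in the same order, with a lower quartile of 2.16 Mb in each and upper quartiles of 3.12, 2.80, 2.93 and 3.09 Mb. The longest were 7.20, 7.96, 9.80 and 8.24 Mb. The median over all autosomal domains was 560, 560, 600 and 640 kb.

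The threshold fell on a slope without a break. Exactly 2 Mb long were 9, 5, 12 and 10 domains, and 6, 7, 5 and 12 were 1 bin shorter and were left out. Domains of 3 Mb or more numbered 32, 26, 26 and 60, and those of 5 Mb or more 3, 2, 4 and 12. The surplus of shHNRNPU replicate 2 was seen between 2 and 3 Mb, from 3 Mb upward and just below the threshold. At exactly 2 Mb its 10 domains lay within the range of the other libraries.

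**Figure D1:**
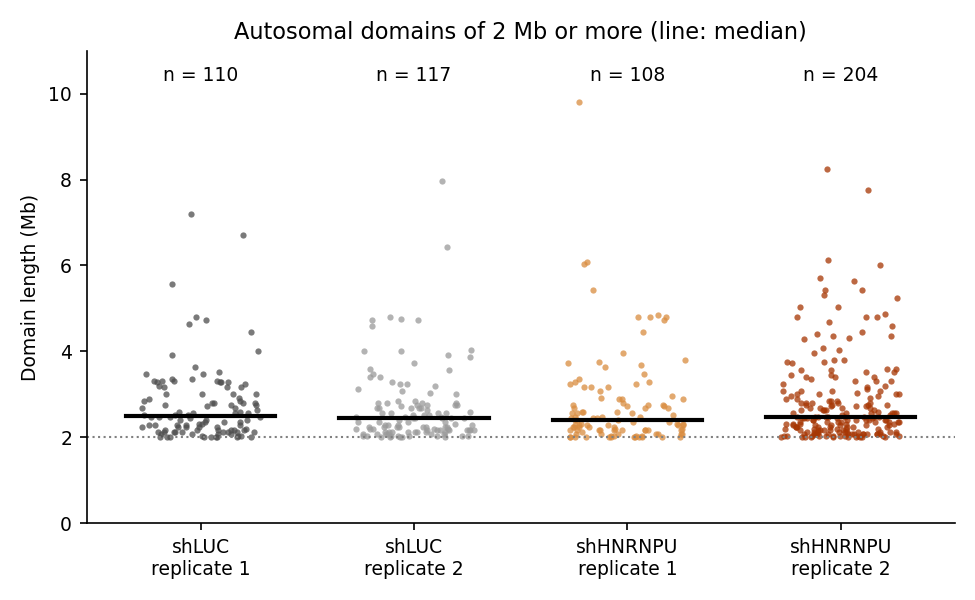
Length in Mb of each autosomal domain of 2 Mb or more, 1 point per domain, in the 4 libraries. The black line is the median and the dotted line the threshold of 2 Mb. The medians lie between 2.4 and 2.5 Mb, while the number of points is 204 in shHNRNPU replicate 2 and 108 to 117 in the others.

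Chromosome 19, the autosome with the most coding genes per Mb (24.7), held the greatest share of very long domains in all 4 libraries. Its members covered 50.3%, 53.8%, 47.6% and 78.4% of its domain sequence in shLUC replicates 1 and 2 and shHNRNPU replicates 1 and 2. They numbered 9, 8, 7 and 12. Chromosome 7 came next in shLUC replicate 1 (21.7%) and shHNRNPU replicate 1 (19.8%), with 16.3% in shLUC replicate 2. Chromosome 13, the autosome with the fewest genes per Mb (2.95), held 2, 0, 1 and 2 members. High gene density and a high share therefore went together on chromosome 19, but not throughout. Chromosome 18, with 3.36 genes per Mb, had 15.2%, 15.6%, 11.8% and 18.6% of its domain sequence in members.

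Several chromosomes with few or no members in 3 libraries had more in shHNRNPU replicate 2. Chromosome 22 held 1, 2 and 0 members in shLUC replicates 1 and 2 and shHNRNPU replicate 1 and 7 in shHNRNPU replicate 2, where they covered 49.1% of its domain sequence. Chromosome 20 held 0, 0 and 1 and then 6 (27.3%), and chromosome 17 held 3, 4 and 5 and then 11 (44.2%). Chromosome 1 differed from these, with 7, 9, 6 and 6 members. Members within 5 Mb of a chromosome end were 6.36%, 4.27% and 6.48% of all members in the first 3 libraries and 9.80% in shHNRNPU replicate 2, beside 8.97%, 9.20%, 8.70% and 7.36% of the shorter domains.

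**Figure D2:**
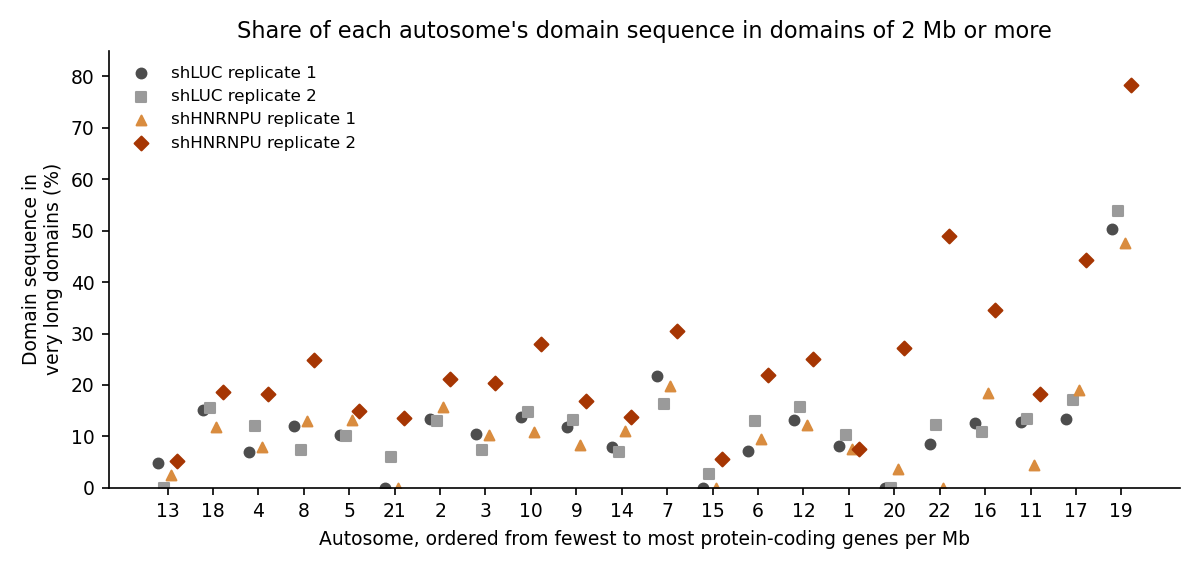
Percent of each autosome's domain sequence that lay in domains of 2 Mb or more, 1 point per library, with autosomes ordered by coding genes per Mb. Chromosome 19 is highest in each library (47.6% to 78.4%), and chromosomes 22, 17 and 20 show shHNRNPU replicate 2 well above the other 3.

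Genes were counted by the centre of each of 19126 autosomal coding genes. Very long domains were a mixture of gene deserts and gene-dense stretches. Members with at most 2 coding genes per Mb numbered 64, 70, 60 and 70 in shLUC replicates 1 and 2 and shHNRNPU replicates 1 and 2. Those with 10 or more numbered 24, 21, 18 and 59, and those between 22, 26, 30 and 75. Both limits were chosen after the values were seen. Gene-poor members were thus 58.2%, 59.8% and 55.6% of the members in the first 3 libraries and 34.3% in shHNRNPU replicate 2, against 27.6%, 28.0%, 29.3% and 32.4% of shorter domains. The number of gene-poor members was alike in all libraries, and the surplus of shHNRNPU replicate 2 stood in the other classes.

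**Figure D3:**
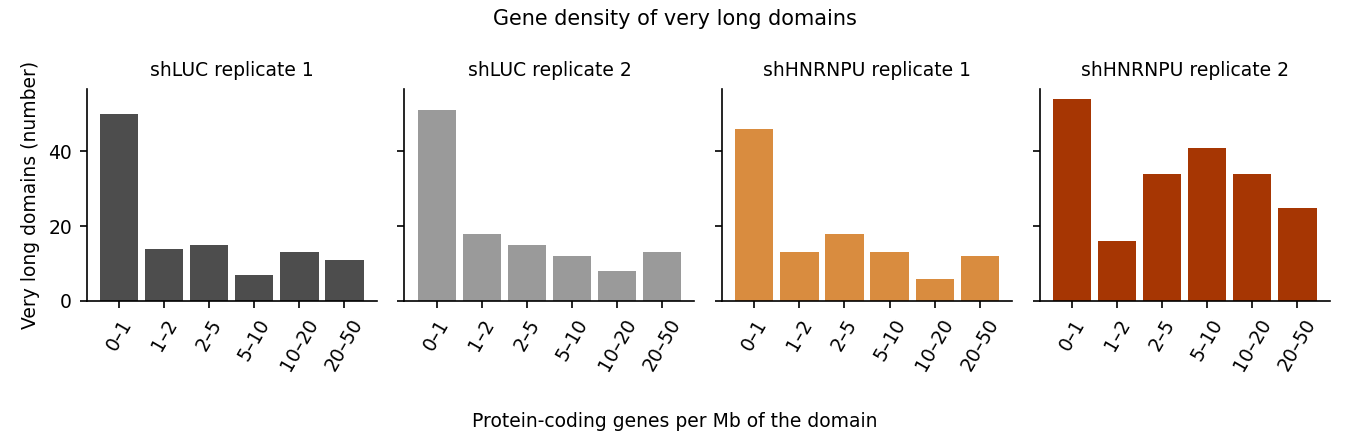
Number of very long domains in each class of coding genes per Mb, 1 panel per library. The bar at the left (0 to 1 gene per Mb) has a like height in all 4 panels, while shHNRNPU replicate 2 has more members in each class above 2 genes per Mb.

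Summed over all members, gene density hid this mixture. Members held 6.98, 6.48, 6.88 and 9.23 coding genes per Mb in shLUC replicates 1 and 2 and shHNRNPU replicates 1 and 2, and shorter domains 6.65, 6.65, 6.62 and 6.12. The differences were 0.33, −0.16, 0.26 and 3.11 genes per Mb, with a mean of 0.89 (exact sign-flip test over the 4 libraries, two-sided, p = 0.25). The smallest p this test can give is 0.125, and the test treats as separate 4 libraries whose members lie partly in the same places. The median member held 1.46, 1.43, 1.5 and 4.91 genes per Mb, and the median shorter domain 5.00, 5.00, 5.00 and 4.17. By medians the mean difference was −2.47 genes per Mb, so the direction depended on the measure. Gene bodies covered 30.9%, 31.0%, 33.4% and 42.1% of the member sequence and 44.9%, 45.2%, 44.8% and 44.1% of shorter domains, lower in members in 4 of 4 libraries.

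Members touched a gap more often than shorter domains did. Those that touched a gap of their own library were 22 of 110 (20%), 23 of 117 (19.7%), 19 of 108 (17.6%) and 54 of 204 (26.5%). The shares of shorter domains were 12.1%, 12.9%, 10.4% and 11.7%. The difference was 9.16 percentage points on average and above 0 in 4 of 4 libraries (exact sign-flip test over the 4 libraries, two-sided, p = 0.125, the smallest it can give). Domains and gaps tile the same sequence, and what a gap stands for is not given in the sources used here.

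In each library 9 members held no annotated gene of any kind, coding or not, and they stood in the same 9 places. These places lie at centromeres, where hg38 holds modelled repeat sequence. The longest was chr18:15800001-20600000 (4.80 Mb), which was the third longest member of shLUC replicate 2. The others were chr1:122520001-124760000, chr4:49680001-51760000, chr5:47280001-49680000, chr7:58160001-60840000, chr9:43360001-45520000, chr11:51080001-54360000, chr16:36320001-38320000 and chr19:24880001-27200000, as called in shLUC replicate 1. Both ends matched within 1 bin in all libraries for 8 of them. For the ninth, on chromosome 11, replicates 1 and 2 of shHNRNPU ended the domain at 54320000 and 54400000, and the controls between them. In each library 7 of the 9 touched a gap. Left out, they lowered the gap difference to 4.71 percentage points and raised the difference in gene density to 1.42 genes per Mb (both p = 0.125, exact sign-flip test).

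The other 3 libraries were then read inside each member. A member was called unsplit by another library when no border of that library lay more than 1 bin inside it. It was then either the same domain, with both ends within 1 bin, or part of a longer domain. Otherwise it was split. Of the 110 members of shLUC replicate 1, shLUC replicate 2 left 40 unsplit (36.4%), against 70.9% of all autosomal domains of shLUC replicate 1. The shHNRNPU replicates left 39 (35.5%, against 71.3%) and 47 (42.7%, against 74.1%). A member is longer than most domains and has more room for a border. Against domains of 1 to 2 Mb, the next shorter class, the unsplit share of members differed by −14.1, −9.86, −11.7 and −20.3 percentage points for members of shLUC replicates 1 and 2 and shHNRNPU replicates 1 and 2.

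Members of shLUC replicate 2 behaved alike. Of 117, shLUC replicate 1 left 48 unsplit (41.0%, against 70.2% of all autosomal domains of shLUC replicate 2). shHNRNPU replicate 1 left 47 (40.2%, against 71.0%) and shHNRNPU replicate 2 left 50 (42.7%, against 73.7%). Of the 108 members of shHNRNPU replicate 1, the shLUC replicates left 44 (40.7%, against 68.7%) and 41 (38.0%, against 70.2%) and shHNRNPU replicate 2 left 45 (41.7%, against 73.4%). Members of these 3 libraries were therefore left whole at like rates by a library of either group.

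Members of shHNRNPU replicate 2 were split more often. Of 204, shLUC replicates 1 and 2 left 31 (15.2%, against 60.5%) and 39 (19.1%, against 60.7%) unsplit, and shHNRNPU replicate 1 left 32 (15.7%, against 61.0%). As the same domain they were called 21, 22 and 20 times. The partner library of the same group therefore split these members at a rate between those of the controls.

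The unsplit share was compared within and between groups. It was 33.7% over the 4 ordered pairs of libraries of the same group and 34.3% over the 8 pairs of different groups. The difference was −0.58 percentage points (exact permutation test of the 4 library labels, two-sided, p = 0.667, where the smallest possible is 0.333). The shLUC pair alone gave 38.7% and the shHNRNPU pair 28.7%, and the difference was 8.75 percentage points without shHNRNPU replicate 1 and 0.112 without shHNRNPU replicate 2.

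**Figure D4:**
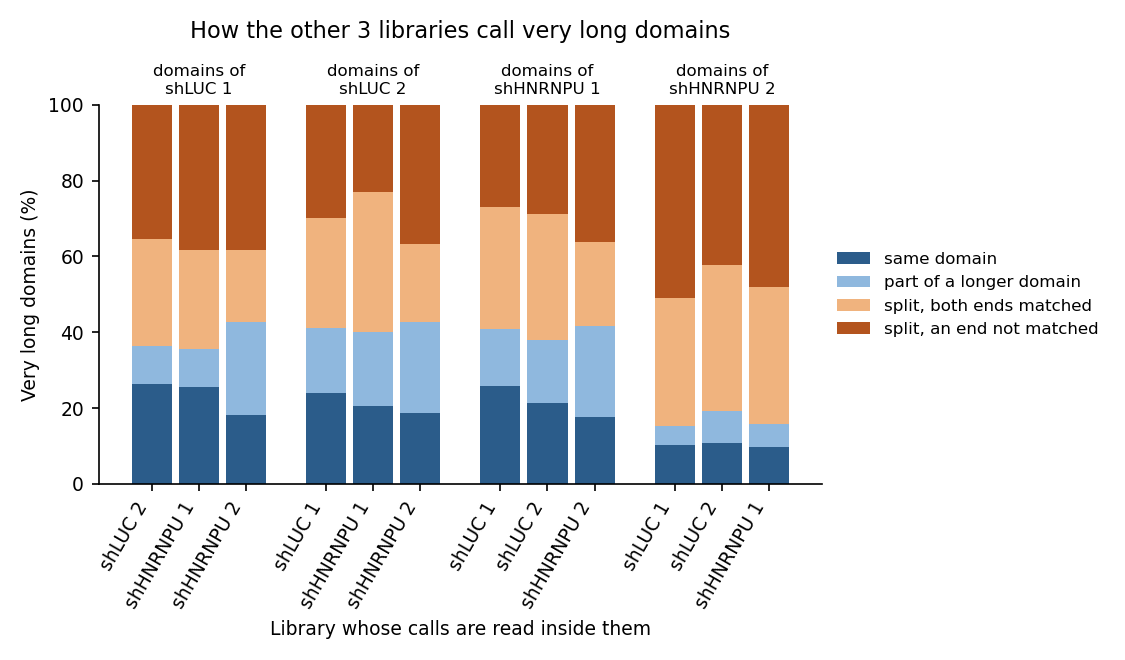
Percent of the very long domains of a library (heading) that each other library (x axis) called as the same domain, as part of a longer domain, or split with or without both ends matched within 1 bin. Bars for shHNRNPU replicate 2 members have the least blue (15.2% to 19.1% unsplit), and those of the other 3 libraries reach 35.5% to 42.7%.

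The borders that split members were also counted per Mb. As callers inside the members of the others, shLUC replicates 1 and 2 placed 0.612 and 0.594 borders per Mb, and shHNRNPU replicates 1 and 2 placed 0.597 and 0.422. The group means were 0.603 ± 0.0126 and 0.509 ± 0.124 (SD, n = 2), a difference of −0.094 borders per Mb (exact permutation test, two-sided, p = 0.667). Without shHNRNPU replicate 2 it was 0.00524. Each caller was scored on the other libraries' members, so the border-rich members of shHNRNPU replicate 2 counted for every caller but that library. In members of shLUC replicate 1 that library placed 0.434, against 0.441 and 0.481 by the other callers. In members of shLUC replicate 2 it placed 0.417 against 0.456 and 0.424. In those of shHNRNPU replicate 1 it placed 0.414 against 0.458 and 0.434. Members of shHNRNPU replicate 2 held 0.921, 0.907 and 0.886 borders per Mb called by shLUC replicates 1 and 2 and shHNRNPU replicate 1. Its shorter domains were also rich in them, with 0.795, 0.795 and 0.735, and its domains of 1 to 2 Mb held 0.903, 0.888 and 0.807. Members of the other 3 libraries held between 0.414 and 0.481, below the 0.540 to 0.631 of their shorter domains. In shHNRNPU replicate 2 alone, members thus lay above shorter domains.

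Split members fell into a few pieces. Split members of shHNRNPU replicate 2 with both outer ends matched overlapped a median of 4, 4 and 3 domains. The callers were shLUC replicates 1 and 2 and shHNRNPU replicate 1, and neighbours that reached in were counted. The domains contained in the member, to within 1 bin, had median lengths of 640, 600 and 640 kb. These lengths are near the medians of all autosomal domains (560, 560 and 600 kb). For members of the other 3 libraries the median number was between 2 and 3 and the median piece between 800 and 1060 kb. Of the 204 members, 69, 79 and 74 were split with both ends matched and 104, 86 and 98 with an end not matched.

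The same member was often split by all the others. In shHNRNPU replicate 2 this held for 148 of 204 members (72.5%), against 22.2% of all its autosomal domains. It held for 41 of 110, 38 of 117 and 40 of 108 members of shLUC replicates 1 and 2 and shHNRNPU replicate 1, against 8.97%, 8.50% and 9.62% of all their domains. Most of all domains are shorter than members and have less room for a border. Members that none of the others split numbered 19, 23, 22 and 16. The median gene density was 0, 0.446, 0.179 and 0 coding genes per Mb for members that none split, and 1.67, 1.40, 2.42 and 6.88 for members that all 3 split. Of the members that none split, 9, 9, 9 and 8 were the gene-free places at centromeres. Without these the median was 1.34, 2.10, 0.98 and 0.952, above that of the split members in shLUC replicate 2 and below it in the other 3. Of the 16 unsplit members of shHNRNPU replicate 2, 14 were gene-poor, the 8 without a gene included, and 0 gene-dense. Of the 148 that all 3 split, 34 were gene-poor and 53 gene-dense.

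Borders inside members stood at 950 positions in shHNRNPU replicate 2, where calls within 1 bin were taken as 1 position. Of these, 133 were called by all 3 other libraries, 267 by 2 and 550 by 1. The pairs were spread evenly, as 97 were shared by shLUC replicate 1 and shHNRNPU replicate 1, 87 by the shLUC libraries and 83 by shLUC replicate 2 and shHNRNPU replicate 1. Inside members of shLUC replicates 1 and 2 and shHNRNPU replicate 1 there were 290, 292 and 272 positions, of which all 3 others called 11, 11 and 14 (3.79%, 3.77% and 5.15%). In each library most inside borders were thus called by a single other library.

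Gene-dense members were split more by some callers than gene-poor ones. In members of shHNRNPU replicate 2 the dense class held 1.14, 1.19 and 1.06 inside borders per Mb and the poor class 0.589, 0.469 and 0.622, for the callers shLUC replicates 1 and 2 and shHNRNPU replicate 1. Averaged over the source libraries, dense minus poor was 0.357, 0.412 and 0.250 borders per Mb for these callers. For the caller shHNRNPU replicate 2 it was −0.134, the opposite sign. The callers were not scored on the same members, since those of shHNRNPU replicate 2 counted for every caller but that library. In members of shLUC replicate 1, dense and poor were 0.604 and 0.370 for shLUC replicate 2, and 0.604 and 0.419 for shHNRNPU replicate 1. For shHNRNPU replicate 2 they were 0.328 and 0.475. Members of shLUC replicate 2 and shHNRNPU replicate 1 gave the same signs. The mean over the 4 callers was 0.221 (exact sign-flip test, two-sided, p = 0.25), and shHNRNPU minus shLUC callers differed by −0.327 (exact permutation test, p = 0.333, the smallest possible). Both values average over these unlike sets of members.

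Few members were called as the same domain in all 4 libraries. Counted as the members of shLUC replicate 1 whose ends each other library matched, there were 13, of which 9 were the gene-free places at centromeres and 4 held a gene. A 2.76 Mb domain at chr10:52800001-55560000 had both ends within 1 bin in each of the other libraries, although its end stood at 55600000 in shLUC replicate 2 and 55520000 in shHNRNPU replicate 2. Its one coding gene by centre was PCDH15, a protocadherin of the inner ear and retina whose body spans 1825 kb. At chr2:91400001-94200000 (2.80 Mb), also near a centromere, the single coding gene was the uncharacterised LOC124905938. The remaining 2 held 10 and 2 coding genes. The former, chr3:134560001-137040000 (2.48 Mb, 4.03 genes per Mb), was named after its values were seen, for it had the most genes of the 13. Its longest were EPHB1, an ephrin receptor, STAG1, a cohesin subunit, and CEP63, a centriole protein.

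Few members were kept by 1 group and split by the other. Of 19 called as the same domain in both shHNRNPU libraries, 2 were split in both shLUC libraries (10.5%, against 7.91% of all autosomal domains that were the same in both shHNRNPU libraries) and 13 were unsplit in both. Of 29 that were the same in both shLUC libraries, 5 were split in both shHNRNPU libraries (17.2%, against 6.84%) and 17 were unsplit in both. With 2 and 5 such members, and libraries of 1 group that split each other's members as often, these are descriptions of places. The shares over all autosomal domains are not matched for length, and a shorter domain has less room for a border.

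The longer of the 2 members kept in shHNRNPU was chr3:90720001-96800000 (6.08 Mb, 5 coding genes), which ran from the centromere over PROS1, an anticoagulant protein, and NSUN3, an RNA methyltransferase. In shLUC replicate 1 it lay in 3 domains with borders at 94040000 and 94840000, and in shLUC replicate 2 in 3 with borders at 93960000 and 96320000. The control libraries thus split it at different places. The other was chr14:33800001-35880000 (2.08 Mb, 15 coding genes, among them RALGAPA1, a regulator of Ral GTPases, and BAZ1A, a chromatin remodelling subunit). It had a border at 34320000 in shLUC replicate 1 and at 34520000 in shLUC replicate 2.

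The 5 kept in shLUC lay in gene-poor sequence in 4 cases and in gene-dense sequence in 1. The gene-dense one, chr12:119720001-123720000 (4 Mb, 75 coding genes, 18.8 per Mb), was named after its values were seen. It tied with the chromosome 11 domain described last here, with 1 border in shHNRNPU replicate 1 and 2 in shHNRNPU replicate 2. The domain chr4:64600001-67440000 (2.84 Mb) held EPHA5, an ephrin receptor, as its one coding gene. It had borders at 65000000 and 65560000 in shHNRNPU replicate 1, and in shHNRNPU replicate 2 a domain ended at 65480000 and the next began at 65560001. A border at 65560000 was therefore called in both shHNRNPU libraries. The domain chr10:36840001-39560000 (2.72 Mb, 5 coding genes, among them ZNF248 and ZNF33A) had a border at 38920000 in both. Replicate 2 of shHNRNPU also had borders at 36960000 and 37000000, the sides of a gap. The domain chr11:40280001-42560000 (2.28 Mb) held LRRC4C, a synaptic adhesion protein whose body spans 1345 kb. Replicate 1 of shHNRNPU split it at 41280000. Replicate 2 split it at 41240000, 1 bin away, and again at 41400000, which replicate 1 did not.

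**Figure D5:**
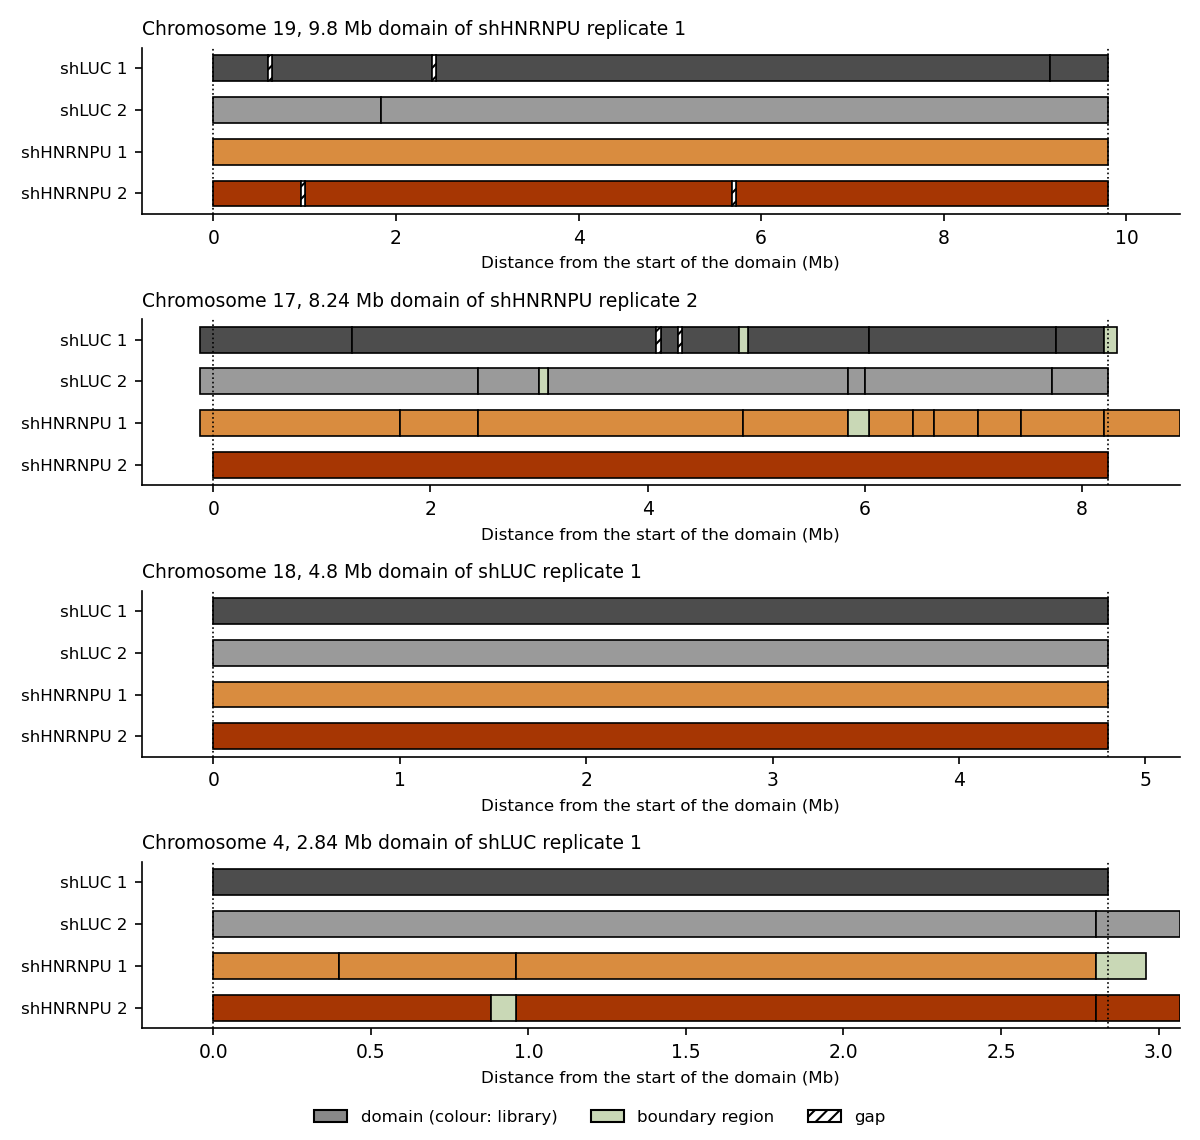
Domain calls of the 4 libraries over 4 named members, with the distance from the start of the member in Mb on the x axis and dotted lines at its ends. Bars are domains, green is a boundary region and hatching a gap, and intervals are cut at the edge of the view. The 9.8 Mb member on chromosome 19 lies in 4, 2 and 3 domains in the other libraries, the 8.24 Mb member on chromosome 17 is broken many times, the 4.8 Mb member on chromosome 18 is the same in all and the 2.84 Mb member on chromosome 4 is split in both shHNRNPU libraries.

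The longest domain of all libraries was chr19:40001-9840000 in shHNRNPU replicate 1 (9.80 Mb, 320 coding genes, 32.7 per Mb). Its longest genes were MUC16, a mucin, GNG7, a G protein subunit, and KDM4B, a histone demethylase. In shLUC replicate 2 the same stretch lay in 2 domains that met at 1880000, and the longer of them (7.96 Mb, 213 genes) was the longest of that library. In shLUC replicate 1 it lay in 4, with 6.72 Mb (175 genes) from 2480001 to 9200000. In shHNRNPU replicate 2 it lay in 3, with ends at 1000000, 5720000 and 9840000. The right end of the stretch stood at 9840000 in all 4 libraries. Of its 6 inside positions, each was called by a single library.

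Other long stretches were shared in part. On chromosome 7 the longest member of shLUC replicate 1, chr7:71760001-78960000 (7.20 Mb, 72 coding genes), held MAGI2, a scaffold protein of synapses and kidney podocytes, and CALN1, a calcium-binding protein of neurons. Its start at 71760001 was shared with a 4.72 Mb member of shLUC replicate 2, which ended at 76480000, and with the 6.04 Mb member of shHNRNPU replicate 1, which ended at 77800000. Also on chromosome 7, a start at 64640001 was shared by shLUC replicate 1 (5.56 Mb, with AUTS2, a gene of brain development) and by both shHNRNPU libraries, whose domains ended at 70080000 and 69960000. In shLUC replicate 2 a 6.44 Mb domain ran from 63600001 to 70040000. The 4 ends thus lay between 69960000 and 70200000, while the starts differed more.

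The 2 longest members of shHNRNPU replicate 2 were gene-dense. The domain chr17:600001-8840000 (8.24 Mb, 224 coding genes, 27.2 per Mb) included RAP1GAP2 and ABR, regulators of small GTPases, and SMG6, a nuclease of nonsense-mediated decay. Inside it shLUC replicate 1 placed 9 borders, shLUC replicate 2 placed 6 and shHNRNPU replicate 1 placed 9. Both sides of a gap or boundary region count as borders. The domain chr19:44560001-52320000 (7.76 Mb, 272 coding genes, 35.1 per Mb) included ARHGAP35, a regulator of small GTPases, and MYH14, a non-muscle myosin, and held 3, 6 and 5 borders. The third longest, chr3:90720001-96840000 described above, ran from the centromere and was gene-poor, so these 3 members differed in gene density.

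Some members of shHNRNPU replicate 2 were broken at the same positions by all the others. Inside chr10:129040001-133080000 (4.04 Mb, 17 coding genes) 4 positions were called by all 3, and the genes included MGMT, a DNA repair enzyme, and INPP5A, an inositol phosphatase. Inside chr2:107560001-112600000 (5.04 Mb, 34 coding genes) 4 positions were called by all 3, among them 107920000, 108200000 and 111760000 in shLUC replicates 1 and 2. The RANBP2 promoter printed above lay 0.619 kb from a further border, at 108720000 in shLUC replicate 1 and shHNRNPU replicate 1 and 108760000 in shLUC replicate 2. Borders are known to the nearest bin, so a distance this small is not resolved. Inside chr1:31160001-33640000 (2.48 Mb, 49 coding genes, with PHC2, a Polycomb protein) 3 positions were called by all 3 and 6 by 2.

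Members of shHNRNPU replicate 1 held fewer such positions. At chr1:71560001-74720000 (3.16 Mb), with NEGR1, a neuronal adhesion protein whose body spans 887 kb, 2 positions were called by all 3 others, and the first stood at 72160000 in each. At chr10:45000001-47760000 (2.76 Mb, 25 coding genes) and at chr12:96520001-98520000 (2.00 Mb, with CFAP54, a ciliary protein, and NEDD1, a spindle protein) 1 was.

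Sequence that lay in a member in at least 1 library came to 801 Mb. Of this, 432 Mb was in a member in a single library, 152 Mb in 2, 94.8 Mb in 3 and 122 Mb in all 4. The stretch in shHNRNPU replicate 2 alone was the greatest part (290 Mb, 2765 coding genes, 9.55 per Mb). Sequence in both shHNRNPU libraries and neither control was 28.4 Mb (350 genes, 12.3 per Mb), and that in both shLUC libraries and neither shHNRNPU library 21.6 Mb (24 genes, 1.11 per Mb). Pairs across the groups ranged as widely. shHNRNPU replicate 2 shared 37.8 Mb with shLUC replicate 1 alone (11.2 genes per Mb) and 37.6 Mb with shLUC replicate 2 alone (6.84), both more than with its partner. shHNRNPU replicate 1 shared 12.2 Mb (4.49 genes per Mb) and 14.8 Mb (1.42) with the same controls. Sequence in no member held 6.23 genes per Mb.

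Gene families were placed in members by symbol (ZNF and a number, for example), beside 11.1%, 10.7%, 10.8% and 28.3% of all autosomal coding genes in shLUC replicates 1 and 2 and shHNRNPU replicates 1 and 2. Zinc finger genes, most of which encode DNA-binding proteins and many of which lie in tandem clusters on chromosome 19, were above these shares in each library. Of 505, members held 155 (30.7%), 123 (24.4%), 86 (17.0%) and 282 (55.8%). On chromosome 19 stood 113, 86, 42 and 200 of them, which were 45.2%, 34.4%, 16.8% and 80% of the 250 there. All coding genes of that chromosome were in members at 53.3%, 52.8%, 54.9% and 82.1%, so within chromosome 19 the family was below the background in each library. In all, 34 were in a member in all 4 libraries, 17 of them on chromosome 19. Of the 955 coding genes in members in all 4 libraries, 482 were on chromosome 19.

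Ribosomal protein genes numbered 14 (18.9%), 10 (13.5%), 12 (16.2%) and 25 (33.8%) of 74 in members, above the share of all coding genes in each library. Of these, 8, 7, 8 and 11 stood on chromosome 19. Those in members in all 4 libraries numbered 6, each on chromosome 19, and included RPL36 and RPS28. Olfactory receptor genes, which lie in clusters, numbered 29 (7.42%), 18 (4.60%), 30 (7.67%) and 99 (25.3%) of 391, below the share of all coding genes in each library. Genes of one cluster share a domain, so family members are not independent.

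Genes of 500 kb or more were also below the background, with 26, 26, 29 and 46 of 303 (8.58%, 8.58%, 9.57% and 15.2%). PCDH15, CALN1 and SNTG1, a syntrophin of neurons, were in members in all 4 libraries. ESRRG, an orphan nuclear receptor, was in a member in the first 3 libraries and not in shHNRNPU replicate 2. Cadherins and protocadherins, which join cells, had 2, 2, 2 and 10 of 86 in members (2.33%, 2.33%, 2.33% and 11.6%), below the share of all coding genes in each library. CDH1, the E-cadherin of epithelial and pluripotent cells, and CDH3 were in a member in shHNRNPU replicate 2 alone, where the sequence found in that library only held 2765 coding genes.

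Subunits of glutamate and GABA receptors numbered 6 (18.2%), 1 (3.03%), 4 (12.1%) and 4 (12.1%) of 33. These shares were above those of all coding genes in replicate 1 of each group and below them in replicate 2. GRIN2D, a subunit of NMDA-type glutamate receptors, was in a member in all 4 libraries. Histone genes numbered 0, 1 (1.35%), 0 and 13 (17.6%) of 74, below the share of all coding genes in each library. Of the 13 in shHNRNPU replicate 2, 11 belonged to the smaller cluster on chromosome 1. None of the 55 histone genes on chromosome 6 lay in a member in any library. Of all coding genes of that chromosome, 5.34%, 2.67%, 2.86% and 15.2% were in members. None of the 39 HOX genes, which set body position, lay in a member either, beside 67.5% of all coding genes in none. Genes of one cluster are not independent, so these counts of 0 are descriptions. The HOX genes were the one family with 0 in each of the 4 libraries.

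Pluripotency regulators were looked up one by one. Of 10, 7 were in no member in any library, near the share of all coding genes in none (67.5%). Among the 7 were POU5F1, SOX2 and NANOG, whose domains were 0.40 to 1.44 Mb, and LIN28A, which lay in a 0.48 Mb domain in shLUC replicate 1 and in no domain in the other 3. DPPA4, a DNA-binding protein of early embryos, lay in a 3 Mb member in shLUC replicate 1 (chr3:108560001-111560000) and in domains of 0.96, 0.96 and 1.76 Mb in shLUC replicate 2 and shHNRNPU replicates 1 and 2. TDGF1, a Nodal co-receptor now named CRIPTO, lay in a 2.12 Mb member in shHNRNPU replicate 2 and in domains of 0.40, 1.08 and 1.00 Mb in the other 3. DNMT3B, a DNA methyltransferase, lay in a 2.24 Mb member in shHNRNPU replicate 2 and in domains of 1.40, 0.68 and 0.72 Mb elsewhere. Each of these 3 genes was thus in a member in a single library, and in none of the cases did both libraries of a group share it.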

How the data were processed

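Hi-C libraries of H1 cells (2 shLUC, 2 shHNRNPU) were grouped and numbered by their titles. The authors deposited 3 lists per library (domains, boundary regions and gaps), and the values used are interval starts and ends as deposited, with no score or contact count. The submitters' processing notes name hg38 and Bowtie2. The domain caller, its settings, normalization and depth are not given in the sources used here, and each can change the number and length of domains. The paper given with the series concerns another experiment and lent its style alone. Positions count from 1.

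Borders, classes and counts per Mb were computed with Python 3.11.15, numpy 2.4.6 and pandas 2.3.3. A border is a domain start or end, and inside means more than 1 bin of 40 kb from both ends of a member. Both sides of a gap or boundary region therefore count, while domains that meet give a single border. The classes were tested on simulated data made from shLUC replicate 1, where 110 of 110 members were classed as planted. Gene counts used the centre of each RefSeq GRCh38.p14 gene, since not every entry gave a strand from which to take the start. Members, gene lists and tests were chosen with earlier results of these data known. Named regions were the 3 longest of each library, the 5 longest shared by all 4, those kept by 1 group and split by the other (at most 3 each), and the 3 of each shHNRNPU library with the most inside borders called by the other 3. Up to 3 of their longest genes were named, and some genes are not reported here. GC content, HindIII sites and CTCF-like letters at domain ends were planned and not analysed here, as they need a genome sequence.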

Additional observations from a re-analysis of the deposited data

How the results depend on the processing

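The difference in the number of very long domains (shHNRNPU minus shLUC, 42.5) kept its sign at 1.6 Mb (51), at 2.4 Mb (26.5) and among domains that touched no gap (24.5). Leaving out each library in turn gave −5.5 to 90.5. For borders per Mb inside members (−0.094) this range was −0.256 to 0.00524, and for the unsplit share, same-group minus other-group pairs, it was −6.32 to 8.75 percentage points. For all 3 the sign turned without shHNRNPU replicate 2. The unsplit difference also turned at 1.6 Mb (0.0207) and with inside set at more than 3 bins (0.454), so its sign is not stable. With boundary regions and gaps counted in place of borders, the difference per Mb was −0.0206 (exact permutation test, p = 0.333, the smallest possible). For gene density (members minus shorter domains, 0.89 genes per Mb) the range was 0.144 to 1.24. It was 0.222 at 1.6 Mb and 2.51 at 2.4 Mb (exact sign flip, p = 0.125). It turned among domains that touched no gap (−0.242), with all annotated genes counted (−0.050) and with medians, chosen after seeing the data (−2.47). The gap difference ranged from 7.29 to 9.97 percentage points with a library left out, and was 4.53 at 1.6 Mb and 13.7 at 2.4 Mb. With replicate numbers as a block, the number differed by 42.5 and borders per Mb by −0.094 (exact sign flip, p = 0.5, the smallest it can give). Deviations of same-numbered libraries over the 22 autosomes correlated at 0.339. Nothing in the labels ties equal numbers to a shared culture. Of 44 other settings run, beside those chosen after seeing the data, 36 kept the direction and 8 turned it. The settings with replicates as a block, counted among the 36, return the main difference and could not turn it. Settings on the number of members, counted among the 44, concern a value that the length rule used and are a description. The 15 that concern GC content, HindIII sites or letters at domain ends were not run. Leaving out members without a gene, also chosen after seeing the data, turned none of the 5 signs. With 2 libraries a group, the exact tests of this design cannot pass a threshold of 0.05. Domain lengths are limited by 40 kb bins and an unknown depth.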
